A study of Mus musculus with 10 samples.

Results

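The 9 genes used as marks of layer 2 to 3 neurons of the mouse cortex were followed in RNA-seq of the somatosensory cortex of mice that lack the histone methyltransferase gene Nsd1 in excitatory neurons. They are Cux1, Cux2, Lamp5, Calb1, Otof, Pou3f1, Pou3f2, Rasgrf2 and Inhba, taken by name, so 9 of the 23283 names in the 2.5-month table and 9 of the 54427 names in the 3-month table. Nex_cKO cortex (Nsd1Nex-cKO, 3 libraries) was compared with Nex_Ctrl cortex (3 libraries) at 2.5 months of age, and Camk2a_cKO cortex (Nsd1Camk2a-cKO, 2 libraries) with Camk2a_Ctrl cortex (2 libraries) at 3 months of age. Of the Nex_Ctrl libraries, replicates 1 and 2 were Nsd1fl/+ and replicate 3 was Nsd1fl/fl, and both Camk2a_Ctrl libraries were Nsd1fl/+. Whether the controls carried a Cre allele is not given in the sources used here. The labels do not say that replicates were separate mice, so the p-values measure the spread between these libraries. Nex (Neurod6) drives Cre in newborn excitatory neurons of the embryonic forebrain, and Camk2a drives it in excitatory neurons after birth, so neither line deletes the gene in glia or in most interneurons.

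NSD1 places methyl groups on lysine 36 of histone H3. The upper layers hold neurons that project within the cortex, either to the other hemisphere or to nearby areas. Their identity is set by transcription factors such as the homeobox proteins CUX1 and CUX2 and the POU-domain proteins POU3F1 and POU3F2. It is read out in adults from genes for membrane, calcium-handling and signalling proteins. In whole tissue, fewer cells of a type and less RNA per cell cannot be told apart.

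Values are FPKM (fragments scaled to transcript length and to the mapped fragments of the library), which can be compared between genes of one table because they are per length. The 2 tables were built on different gene models, so FPKM levels were not compared between them. Only the order of the 9 genes within each table was set side by side. The 4 libraries of the 3-month table held 16901717 to 20074933 reads, recovered from FPKM and gene length, and the depth of the 2.5-month table is unknown. Nex_cKO replicate 3 stood apart from the other 5 libraries of its table. It alone had RNA of the Y-linked gene Ddx3y (16.2 FPKM, against 0 in each of the others) and next to none of Xist (0.0035 FPKM, against 33.6 to 46.5 FPKM). In it, rows without a gene name held 41.6% of all FPKM, against 2.33% to 19.4% in the others. Nsd1 could be read by itself only in the 3-month table, with 4.31 and 4.99 FPKM in Camk2a_cKO and 5.61 and 8.87 FPKM in Camk2a_Ctrl. In the 2.5-month table it shared a row with Prelid1, which had 91.0, 118 and 106 FPKM in Nex_cKO and 130, 125 and 141 FPKM in Nex_Ctrl. Slc17a7, the vesicular glutamate transporter of cortical excitatory neurons, had 464 to 589 FPKM over the libraries of the 2.5-month table. In the 3-month table it had 248 to 297 FPKM.

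All 9 upper layer genes were present in every library. In Nex_Ctrl the order by mean level was Lamp5 (179 FPKM), Calb1 (48.6), Rasgrf2 (26.0), Cux1 (25.7), Cux2 (22.4), Pou3f1 (15.5), Pou3f2 (8.03), Inhba (2.02) and Otof (1.60 FPKM). Neighbours in this order had separate ranges over the 3 libraries, except Rasgrf2 and Cux1. Lamp5 stood above 97.3% of the 12528 genes tested and Otof above 8.60%. In Camk2a_Ctrl the order was Lamp5 (95.1 FPKM), Calb1 (29.5), Rasgrf2 (29.1), Cux2 (17.2), Pou3f1 (11.5), Pou3f2 (9.32), Cux1 (7.76), Inhba (1.75) and Otof (1.04 FPKM). There, Calb1 and Rasgrf2 overlapped. Both tables thus placed Lamp5 first and Inhba and Otof last, and Cux1 was the gene whose place differed most, 4th at 2.5 months and 7th at 3 months. The length used for Cux1 in the 3-month table was 20024 bases, which is the union of all its annotated exons over 14 transcripts.

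On GRCm38, 3 of the 9 genes lie on chromosome 4: Calb1 (ENSMUSG00000028222, 15881264 to 15908064, plus strand), Pou3f1 (ENSMUSG00000090125, 124656807 to 124660655, plus) and Pou3f2 (ENSMUSG00000095139, 22482780 to 22488366, minus). Another 3 lie on chromosome 5, all on the minus strand: Cux1 (ENSMUSG00000029705, 136248135 to 136567490), Cux2 (ENSMUSG00000042589, 121856366 to 122050102) and Otof (ENSMUSG00000062372, 30367062 to 30461932). Rasgrf2 (ENSMUSG00000021708, 91880400 to 92131656, minus) and Inhba (ENSMUSG00000041324, 16011851 to 16031621, plus) lie on chromosome 13. The values are of whole genes, so no isoform was read apart.

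**Figure D1:**
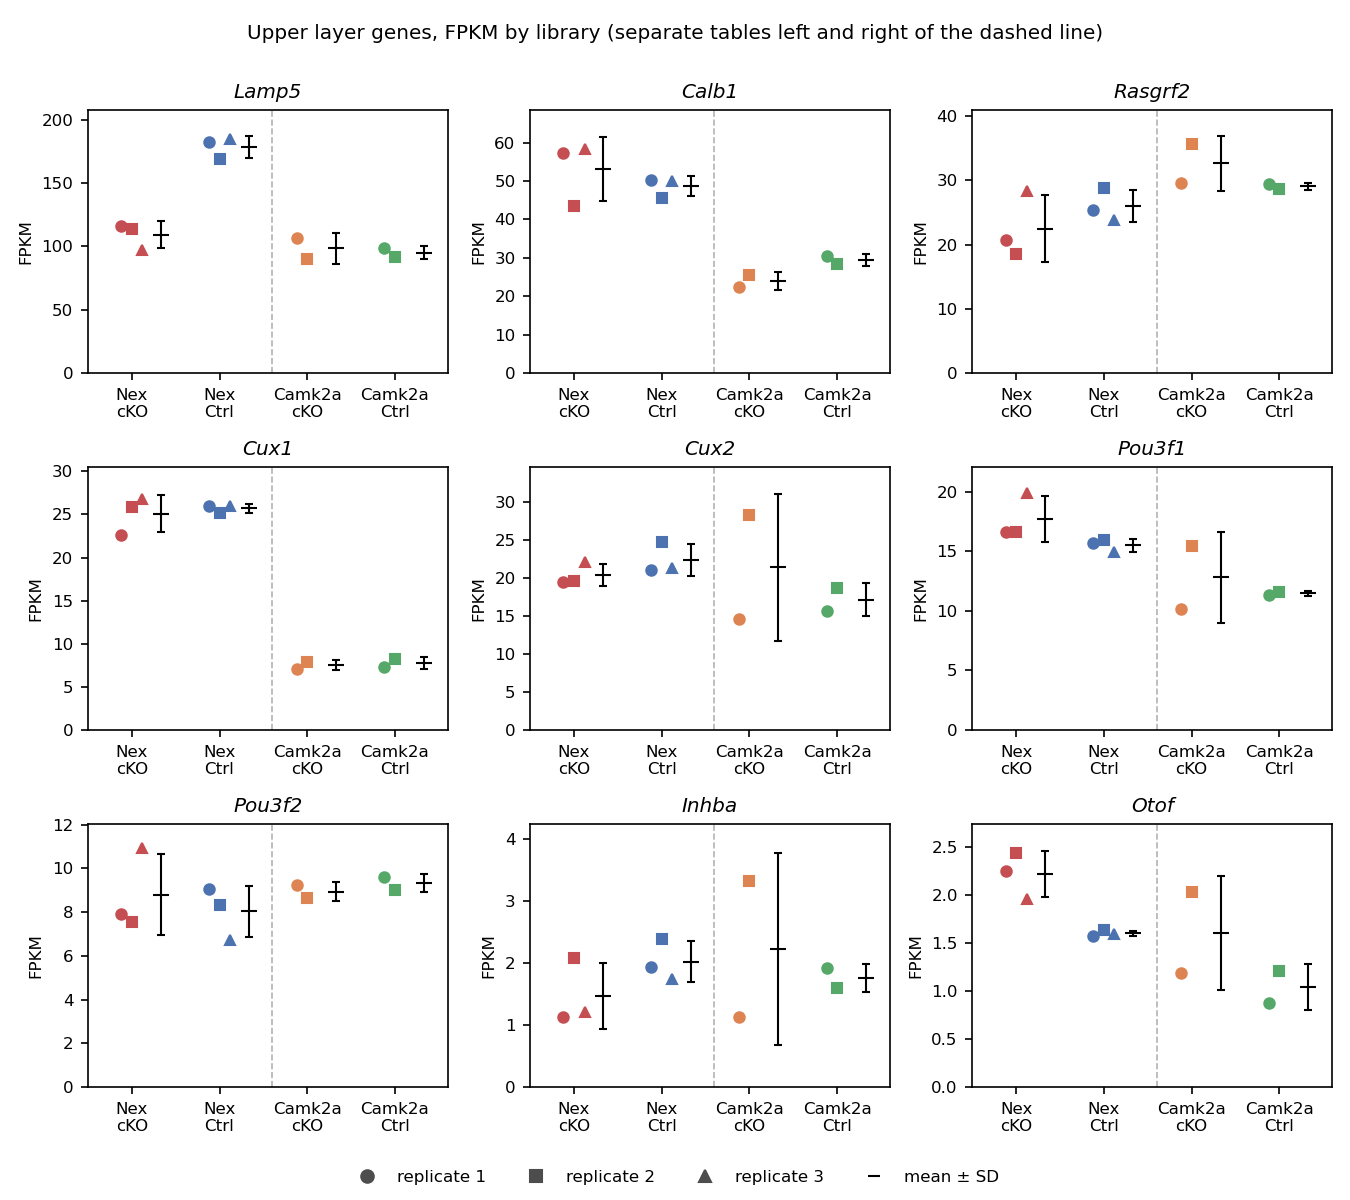
Level of each upper layer gene in FPKM (vertical axes, linear from 0) by library, with 1 panel per gene. Points are libraries, with replicate number by marker, and bars give mean ± SD. The dashed line separates the tables, whose levels are not on one scale. The 3 Nex_cKO points of Lamp5 (96.9 to 116 FPKM) lie below the 3 Nex_Ctrl points (169 to 185 FPKM), and Camk2a_cKO replicate 2 stands above replicate 1 for Cux2, Pou3f1, Inhba and Otof.

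Of the 9 genes, 1 changed in Nex_cKO: Lamp5 fell, and none rose. Over all 12528 genes tested 8.53% passed the same threshold (limma, adjusted p under 0.05), 4.47% higher and 4.06% lower, so 1 of 9 (11.1%) is near the share among all genes. The median log2 change of the 9 genes was -0.04 (range -0.71 to 0.30), and that of all genes tested was also -0.04. Before adjustment 2 of 9 (22.2%) had p under 0.05, against 23.5% of all genes. Counts and median of the upper layer genes were thus close to those of genes at large.

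Lamp5 encodes a lysosome-associated membrane protein restricted to neurons, and in the mouse cortex it marks upper layer pyramidal cells as well as neurogliaform interneurons. The gene (ENSMUSG00000027270) lies on chromosome 2, from 136052239 to 136069917 on the plus strand of GRCm38. It had 116, 114 and 96.9 FPKM in Nex_cKO, against 183, 169 and 185 FPKM in Nex_Ctrl. Every Nex_cKO library was below every Nex_Ctrl library, and the lowest was replicate 3, the one with Ddx3y RNA. The means were 109 ± 10.6 FPKM in Nex_cKO and 179 ± 8.67 FPKM in Nex_Ctrl (SD, n = 3 each), a ratio of 0.611. The log2 change of FPKM + 1 was -0.71 (SE 0.09, 95% interval -0.92 to -0.50, limma adjusted p = 0.00153). Lamp5 was 76th of the 509 lower genes by size of change. Among the 35 of them with at least 100 FPKM on average in Nex_Ctrl, a bound chosen after the values were seen, it was 5th. It was lower at adjusted p from 0.00033 to 0.0132 in each of the 15 other settings tried, with log2 changes from -0.76 to -0.58. Without Nex_cKO replicate 3 the log2 change was -0.63. A second, weak row named Lamp5 in the 2.5-month table, with 0.94 to 1.95 FPKM over the 6 libraries, was not tested.

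The RefSeq promoter windows (build GRCm38.p6, 250 bases before to 50 bases after a start) covered 6 of the 9 genes with 8 windows. They differ in how many CG dinucleotides they hold, which is printed in capitals below for the gene that fell and for a transcription factor gene that did not pass the test. The Lamp5 windows are chr2:136052089-136052388 and chr2:136057498-136057797 on the plus strand, and the Pou3f2 window is chr4:22488317-22488616 on the minus strand.
Lamp5 upstream start: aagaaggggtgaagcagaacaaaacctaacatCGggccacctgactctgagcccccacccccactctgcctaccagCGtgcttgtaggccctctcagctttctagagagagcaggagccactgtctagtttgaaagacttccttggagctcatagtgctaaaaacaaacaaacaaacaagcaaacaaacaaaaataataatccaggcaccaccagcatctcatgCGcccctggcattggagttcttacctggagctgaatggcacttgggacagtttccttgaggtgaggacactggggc
Lamp5 internal start: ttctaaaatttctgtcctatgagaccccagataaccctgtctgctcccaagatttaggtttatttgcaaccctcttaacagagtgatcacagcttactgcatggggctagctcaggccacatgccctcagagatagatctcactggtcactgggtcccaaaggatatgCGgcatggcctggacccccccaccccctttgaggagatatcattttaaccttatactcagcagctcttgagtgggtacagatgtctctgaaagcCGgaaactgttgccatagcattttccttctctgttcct
Pou3f2 start: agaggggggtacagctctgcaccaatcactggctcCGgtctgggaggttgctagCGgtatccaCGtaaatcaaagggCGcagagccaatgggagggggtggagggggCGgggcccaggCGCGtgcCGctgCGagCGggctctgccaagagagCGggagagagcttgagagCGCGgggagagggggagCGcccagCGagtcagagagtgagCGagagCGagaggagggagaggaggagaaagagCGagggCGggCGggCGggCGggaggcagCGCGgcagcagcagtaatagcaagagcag
The Lamp5 windows hold 3 and 2 CG dinucleotides (50.7% and 48.3% G or C), while the median over 32851 mouse promoter windows is 7 (52.7% G or C). Only 23.3% and 14.1% of all windows hold fewer. The Pou3f2 window holds 24 (67.7% G or C), more than 80.0% of all windows. Rasgrf2 (28), Cux1 (25) and one of the Cux2 windows (48) are also rich in them, whereas the other Cux2 window has 4 and that of Inhba 7. At least 1 CG is found in 94.6% of all windows. The octamer ATGCAAAT, the classical site of POU proteins, was searched on both strands and occurs in none of the 8 windows and in 1.74% of all windows. CCAAT, on either strand, occurs in the upstream Lamp5 window and in that of Pou3f2, and in 37.4% of all windows. TATAAA, on either strand, occurs in the Cux2 window with 4 CG dinucleotides and in that of Inhba, and in 13.6% of all windows. These matches describe letters only.

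The 4 transcription factor genes did not pass the test in Nex_cKO. Cux2, which acts in dendrite and spine formation of upper layer neurons, had 19.5, 19.6 and 22.1 FPKM in Nex_cKO, against 21.1, 24.8 and 21.3 FPKM in Nex_Ctrl. The ranges overlapped, and the log2 change was -0.13 (95% interval -0.33 to 0.07, limma adjusted p = 0.428). Its relative Cux1 had 22.7, 25.8 and 26.8 FPKM in Nex_cKO, against 26.0, 25.1 and 26.0 FPKM in Nex_Ctrl. Replicate 1 of Nex_cKO was the lowest of the 6, the other Nex_cKO values lay around those of the controls, and the log2 change was -0.04 (95% interval -0.22 to 0.14, adjusted p = 0.816). A log2 change below -0.33 for Cux2 or below -0.22 for Cux1 lies outside these intervals. Cux1 shares 394 of its 20024 exon bases with the antisense gene Gm16599. The strand used in counting is not given in the sources used here, so reads from the shared bases cannot be assigned to either gene.

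Pou3f1, also known as Oct6 or SCIP, had 16.6, 16.6 and 19.9 FPKM in Nex_cKO, against 15.7, 16.0 and 14.9 FPKM in Nex_Ctrl. Every Nex_cKO value was above every Nex_Ctrl value, which was so for 11.5% of all genes tested. The log2 change was 0.18 (95% interval -0.02 to 0.37, limma adjusted p = 0.271) and did not pass. Pou3f2, also known as Brn2, had 7.93, 7.54 and 10.9 FPKM in Nex_cKO, against 9.04, 8.32 and 6.74 FPKM in Nex_Ctrl. Replicate 3 of Nex_cKO was the highest of the 6 and the other Nex_cKO values lay among the controls, and the log2 change was 0.11 (95% interval -0.22 to 0.44, adjusted p = 0.703). For both POU genes the highest of the 6 values was that of Nex_cKO replicate 3. Each of them has a single annotated transcript, and Pou3f1 shares 330 exon bases with the antisense gene Gm2164.

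The calcium-handling genes did not pass either. Calb1, for the calcium buffer calbindin, had 57.3, 43.4 and 58.4 FPKM in Nex_cKO, against 50.3, 45.6 and 50.02 FPKM in Nex_Ctrl. The Nex_cKO values lay on both sides of the controls, and the log2 change was 0.11 (95% interval -0.15 to 0.37, limma adjusted p = 0.609). Otof, for otoferlin, the calcium sensor known from transmitter release in inner hair cells, had 2.25, 2.43 and 1.96 FPKM in Nex_cKO, against 1.58, 1.63 and 1.59 FPKM in Nex_Ctrl. All 3 Nex_cKO values lay above the controls. The log2 change was 0.30 (95% interval 0.06 to 0.55), with a limma p of 0.0207 before adjustment and 0.130 after it. The Otof controls were close together: 97.5% of genes had a larger SD of log2 values in Nex_Ctrl than its 0.016. With Pou3f1, Otof made 2 of 9 genes with every Nex_cKO value higher (11.5% of all genes), and Lamp5 was the 1 gene with every Nex_cKO value lower (18.9% of all genes).

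The signalling genes varied more between Nex_cKO libraries. Rasgrf2, for a calcium-responsive exchange factor that activates Ras and Rac, had 20.7, 18.5 and 28.3 FPKM in Nex_cKO, against 25.4, 28.8 and 23.9 FPKM in Nex_Ctrl. Replicates 1 and 2 of Nex_cKO lay below all controls and replicate 3 lay among them. With all libraries the log2 change was -0.22 (95% interval -0.55 to 0.11, limma adjusted p = 0.403), and without Nex_cKO replicate 3 it was -0.39 and passed (adjusted p = 0.0358). Its SD of log2 values in Nex_cKO was 0.31, and 7.99% of genes had a larger one. Inhba, for the beta A subunit of activin A, a secreted ligand induced by neuronal activity, had 1.12, 2.07 and 1.20 FPKM in Nex_cKO, against 1.94, 2.39 and 1.73 FPKM in Nex_Ctrl. Replicate 2 of Nex_cKO lay among the controls and the others below them, and the log2 change was -0.31 (95% interval -0.68 to 0.07, adjusted p = 0.301). The part of sex and of the rows without a gene name in the values of Nex_cKO replicate 3 was not tested.

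**Figure D2:**
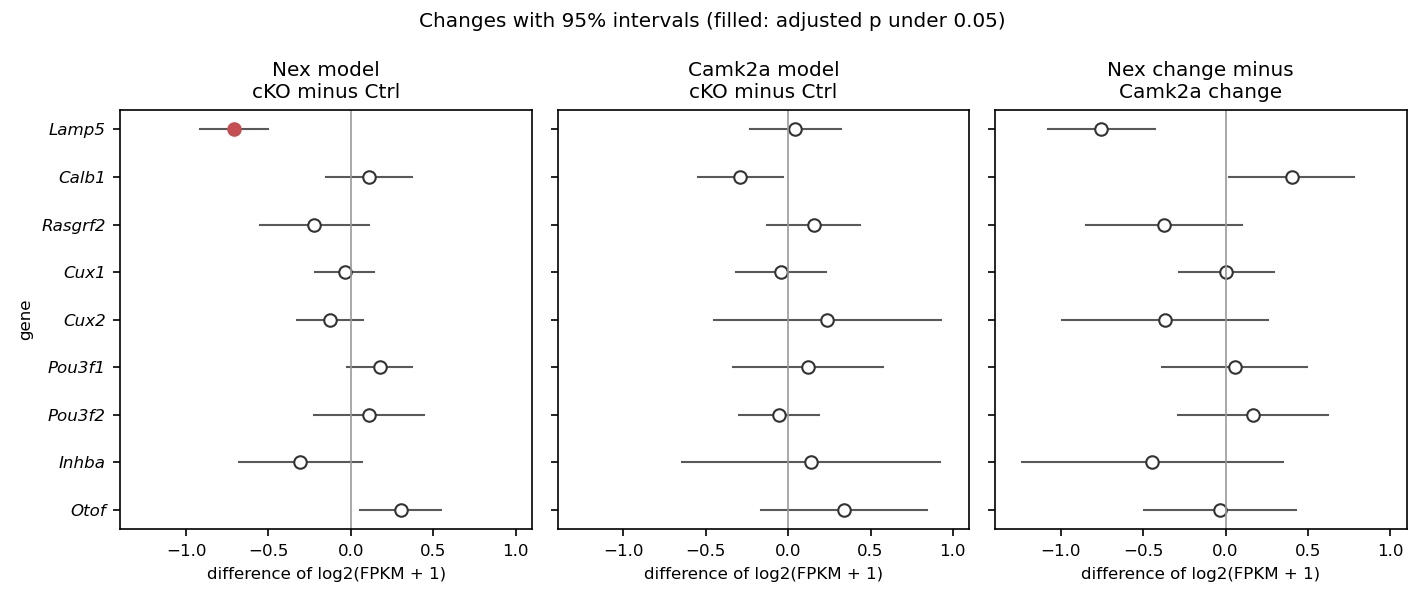
Log2 change of FPKM + 1 (horizontal axis), cKO over Ctrl, of the 9 genes in the Nex model (left) and the Camk2a model (middle), and the Nex change minus the Camk2a change (right), with 95% intervals from limma. Lamp5 in the Nex model (-0.71) is the only filled point, which marks an adjusted p under 0.05, and the other intervals of that model include 0 except that of Otof (0.06 to 0.55).

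In the Camk2a model none of the 9 genes passed the test, and neither did any other gene (0% of 12919 genes, limma). The lowest adjusted p of all genes was 0.0632, and 899 genes had p under 0.05 before adjustment. Other settings of limma gave 0 to 5 higher and 0 to 1 lower genes. The median log2 change of the 9 genes was 0.12, against -0.01 over all genes tested, and 6 of the 9 were positive (47.5% of all genes). With 2 libraries a group, intervals were wide.

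Lamp5 had 107 and 89.9 FPKM in Camk2a_cKO (5575 and 4433 reads), against 98.8 and 91.4 FPKM in Camk2a_Ctrl (4987 and 5300 reads). The Camk2a_cKO values were the highest and the lowest of the 4. The log2 change was 0.04 (95% interval -0.23 to 0.32, limma adjusted p = 0.965), and the interval does not reach the -0.71 seen in the Nex model. Set against each other in one fit of the 10408 genes tested in both tables, the Lamp5 changes differed by -0.75 (Nex minus Camk2a, SE 0.15, 95% interval -1.08 to -0.43). The adjusted p was 0.0555, short of the threshold that 0.528% of genes passed. It passed without filter on low values (0.0359) and with libraries rescaled to the summed FPKM of named rows (0.0251). It also passed without Nex_cKO replicate 2 and without Nex_cKO replicate 3. In every other setting that kept at least 2 libraries a group it did not pass (limma adjusted p from 0.0513 to 0.143). Fits without 1 of the Camk2a libraries, which leave 1 library in a group, gave differences from -0.88 to -0.63. Driver, age, sex of most libraries and table differ together between the models and cannot be told apart. For the other 8 genes the difference ran from -0.45 (Inhba) to 0.40 (Calb1), with adjusted p of at least 0.359.

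Calb1 had 22.4 and 25.6 FPKM in Camk2a_cKO (1930 and 2083 reads), against 30.6 and 28.4 FPKM in Camk2a_Ctrl (2548 and 2722 reads). Both Camk2a_cKO values lay below both controls, as for 21.1% of all genes. The log2 change was -0.29 (95% interval -0.55 to -0.03), with a limma p of 0.0333 before adjustment and 0.670 after it. In the Nex model its log2 change was 0.11, and the difference of 0.40 (95% interval 0.02 to 0.78) had an adjusted p of 0.359. Rasgrf2 was the 1 gene with both Camk2a_cKO values above both controls (16.2% of all genes), with 29.6 and 35.7 FPKM in Camk2a_cKO, against 29.5 and 28.7 FPKM in Camk2a_Ctrl. Its log2 change was 0.15 (95% interval -0.13 to 0.43, limma adjusted p = 0.860), and it was 0.29 without Camk2a_cKO replicate 1 and 0.023 without Camk2a_cKO replicate 2.

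Cux1 had 7.10 and 7.91 FPKM in Camk2a_cKO, against 7.29 and 8.23 FPKM in Camk2a_Ctrl, a log2 change of -0.04 (95% interval -0.32 to 0.23, limma adjusted p = 0.965). Pou3f2 had 9.23 and 8.63 FPKM in Camk2a_cKO, against 9.61 and 9.03 FPKM in Camk2a_Ctrl, a log2 change of -0.06 (95% interval -0.30 to 0.19, adjusted p = 0.946). For both, the 2 groups overlapped. The SD of log2 values was 0.06 in each group for Pou3f2. For Cux1 it was 0.10 in Camk2a_cKO and 0.11 in Camk2a_Ctrl, where 36.9% of genes had a larger one.

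The remaining 4 genes differed more between the 2 Camk2a_cKO libraries than between the groups. Inhba had 1.13 and 3.31 FPKM in Camk2a_cKO, against 1.91 and 1.60 FPKM in Camk2a_Ctrl. Cux2 had 14.6 and 28.3 FPKM in Camk2a_cKO, against 15.6 and 18.7 FPKM in Camk2a_Ctrl. Otof had 1.19 and 2.02 FPKM in Camk2a_cKO, against 0.875 and 1.21 FPKM in Camk2a_Ctrl. In each case replicate 2 of Camk2a_cKO was the highest of the 4 libraries and replicate 1 lay among or below the controls. Pou3f1 had the same form, with 10.1 and 15.5 FPKM in Camk2a_cKO, against 11.3 and 11.6 FPKM in Camk2a_Ctrl. Their log2 changes were 0.14 for Inhba, 0.24 for Cux2, 0.34 for Otof and 0.12 for Pou3f1 (limma adjusted p from 0.821 to 0.959). Without Camk2a_cKO replicate 2 the log2 changes were -0.37 for Inhba, -0.22 for Cux2, -0.17 for Pou3f1 and 0.10 for Otof.

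Counting error was small beside these gaps. The reads of Inhba were 128 and 356 in Camk2a_cKO replicates 1 and 2, with exact Poisson intervals of 0.939 to 1.34 and 2.98 to 3.68 FPKM. Those of Cux2 were 2617 and 4795, with intervals of 14.0 to 15.2 and 27.5 to 29.1 FPKM, and those of Otof were 167 and 269, with intervals of 1.01 to 1.38 and 1.79 to 2.28 FPKM. The intervals cover counting error only. On the log2 scale, replicate 2 exceeded replicate 1 of Camk2a_cKO by 1.02 for Inhba, 0.91 for Cux2, 0.57 for Pou3f1 and 0.47 for Otof. As large a value or larger was seen in 0.418%, 0.689%, 2.58% and 4.26% of all genes, whose 5th to 95th percentile ran from -0.43 to 0.44. Of the 9 genes 7 were higher in replicate 2, and Lamp5 (-0.25) and Pou3f2 (-0.09) were not. Among other fixed lists the median of this log2 ratio was 0.23 over 14 other upper layer genes, 0.09 over 6 layer 4 genes, -0.02 over 11 layer 5 genes and -0.11 over 12 layer 6 genes. Over lists of other cells and regions it was 0.30 for 5 striatal, 0.25 over 3 thalamic, 0.23 over 8 microglial and 0.17 over 10 general excitatory genes. It was 0.16 over 3 hippocampal, 0.12 over 7 neurogliaform and -0.20 over 7 Sst and Calb2 interneuron genes. For 12 general GABAergic genes it was 0.03, for 11 oligodendrocyte genes 0.01, for 8 endothelial genes -0.007 and for 8 astrocyte genes -0.04. The microglial median was also 0.23 between the Camk2a_Ctrl libraries. In Camk2a_Ctrl the ratios of the 9 genes ran from -0.16 to 0.25, within the 5th to 95th percentile of all genes there (-0.32 to 0.33). The part of the tissue taken in each dissection was not tested.

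**Figure D3:**
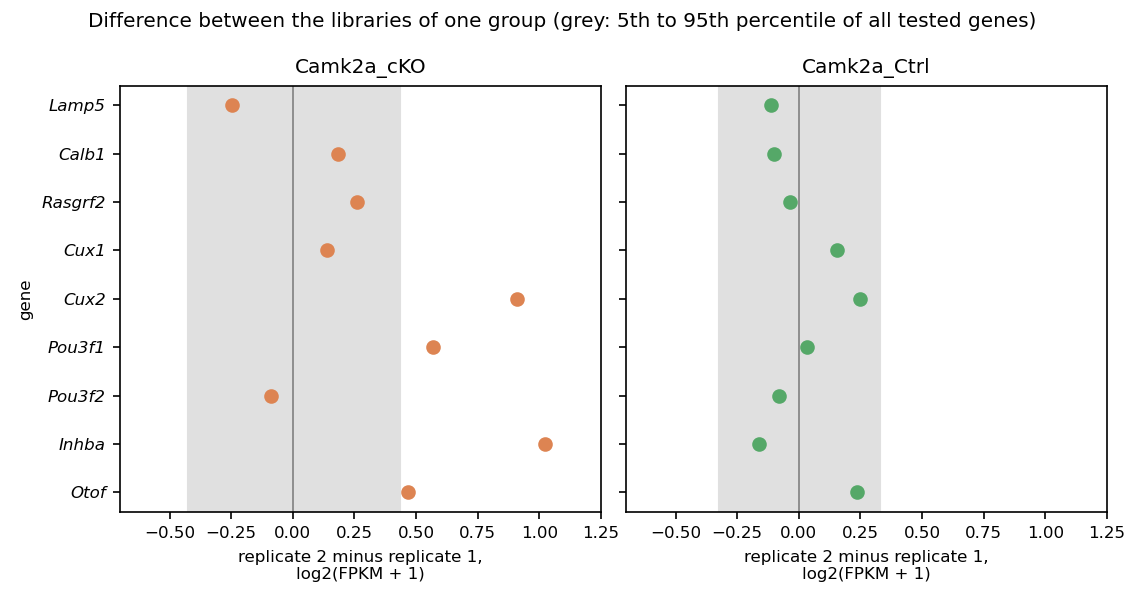
Log2 of replicate 2 over replicate 1 (FPKM + 1, horizontal axis) of the 9 genes in Camk2a_cKO and Camk2a_Ctrl, with the 5th to 95th percentile range of all 12919 genes shaded. Inhba, Cux2, Pou3f1 and Otof lie beyond the range in Camk2a_cKO (above 0.44), and no gene does in Camk2a_Ctrl.

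Other upper layer genes were likewise mixed in the Nex model. Of 15 listed, 14 were tested, 2 rose, none fell and the median log2 change was -0.06 (4 positive and 10 negative). Over all genes tested 40.5% were positive. Wfs1, which encodes wolframin, a protein of the endoplasmic reticulum, had 45.5, 62.3 and 51.1 FPKM in Nex_cKO, against 17.7, 19.6 and 19.9 FPKM in Nex_Ctrl, a log2 change of 1.42 (limma adjusted p = 0.0001). Agmat, named for agmatinase, averaged 4.46 ± 0.976 FPKM in Nex_cKO and 1.68 ± 0.252 FPKM in Nex_Ctrl (SD, n = 3 each), a log2 change of 1.02 (adjusted p = 0.00297). Both thus moved the other way from Lamp5, and the groups did not overlap for either. Unc5d, a netrin receptor gene, had 3.93, 4.20 and 5.85 FPKM in Nex_cKO, against 7.06, 6.49 and 7.04 FPKM in Nex_Ctrl, and just missed the threshold (adjusted p = 0.0530). Like Rasgrf2, it passed without Nex_cKO replicate 3.

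The deeper layers were listed to set the 9 genes beside. Of 11 layer 5 genes 5 fell and none rose (median log2 change -0.36), the largest being Pcp4, a calmodulin-binding peptide gene, with 249 ± 93.4 FPKM in Nex_cKO and 568 ± 17.1 FPKM in Nex_Ctrl (SD, n = 3 each). Fam84b, Ldb2 and the transcription factor gene Fezf2 were the next by size (-0.58, -0.49 and -0.49 on the log2 scale). None of the 5 calls was kept when any 1 of the Nex_Ctrl libraries was left out, and 2 to 4 genes fell without 1 of the Nex_cKO libraries. Only 1 fell with rescaling to named rows, the replicate block or a filter of FPKM of at least 5. It was 2 without filter, with quantile normalization, median ratio rescaling or no intensity trend. With either rescaling or no intensity trend 1 rose, and 2 rose without Nex_cKO replicate 2. Over all genes tested 4.06% were lower. Of 12 layer 6 and subplate genes 4 fell and none rose (median -0.27), led by Syt6 (-1.14), Foxp2 (-0.73), Tbr1 (-0.46) and Tle4 (-0.36), with 3 to 5 falling when 1 library was left out. Of 6 layer 4 genes 2 rose, Rspo1 (0.73) and Scnn1a (0.66), and 2 fell, Whrn (-0.59) and Rorb (-0.56). Scnn1a missed the threshold in 3 of the 6 fits that left 1 library out (adjusted p from 0.0697 to 0.0762), and Rorb missed it without Nex_Ctrl replicate 3 (0.0507) and with rescaling to named rows (0.0629). In the Camk2a model no gene of these lists passed, and the medians were -0.07 for other upper layer genes, 0.06 for layer 4, -0.13 for layer 5 and -0.11 for layer 6. Whether the layers differ from one another was not tested.

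**Figure D4:**
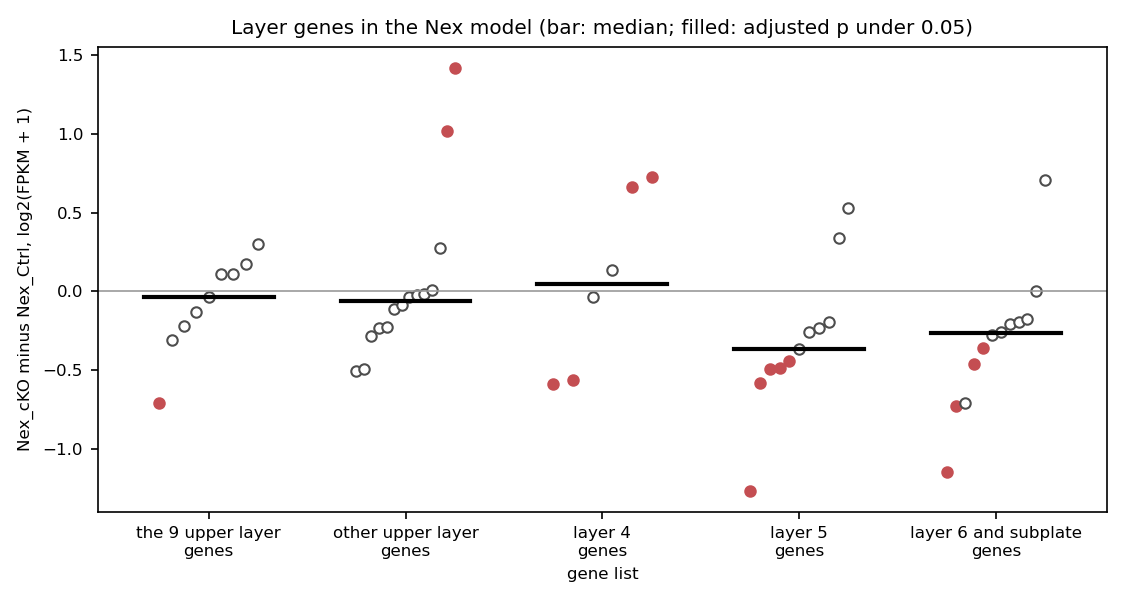
Log2 change in the Nex model (vertical axis, FPKM + 1, Nex_cKO over Nex_Ctrl) of the 9 genes and of genes listed for other upper layer neurons and for layers 4, 5 and 6. Points are genes, filled where the adjusted p was under 0.05, ordered by value within a list, and horizontal bars are medians. The 9 genes have a median of -0.04, layer 5 of -0.36 and layer 6 of -0.27, and Wfs1 (1.42) and Agmat (1.02) rise among the other upper layer genes.

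Relatives and pathway partners were taken from lists. Of 9 tested paralogues of the 9 genes only Dysf passed. It encodes dysferlin, a ferlin like otoferlin, known from membrane repair in muscle, and rose to 7.57, 6.64 and 5.80 FPKM in Nex_cKO, against 1.17, 1.43 and 1.16 FPKM in Nex_Ctrl (log2 change 1.76, limma adjusted p = 4.2e-05). The lysosomal Lamp1 (119 ± 3.46 FPKM in Nex_cKO and 124 ± 6.96 FPKM in Nex_Ctrl, SD, n = 3 each) and Lamp2 (27.6 ± 4.02 FPKM in Nex_cKO and 26.5 ± 1.50 FPKM in Nex_Ctrl) did not pass, with log2 changes of -0.06 and 0.05. Rasgrf1, the relative of Rasgrf2, had a log2 change of 0.01, and Calb2, for calretinin, one of -0.06.

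Around activin A, 12 genes were tested, of which 1 rose and 2 fell. Fst, for follistatin, which binds and blocks activin, averaged 0.794 ± 0.156 FPKM in Nex_cKO and 1.96 ± 0.336 FPKM in Nex_Ctrl (SD, n = 3 each), a log2 change of -0.72 (limma adjusted p = 0.0112). It missed the threshold without Nex_Ctrl replicate 1 (0.0609) and without Nex_Ctrl replicate 2 (0.0506). The receptor gene Acvr2a rose (0.42, adjusted p = 0.0444) and the inhibitory Smad gene Smad7 fell (-0.44, adjusted p = 0.0462). Both missed the threshold in 5 of the 6 fits that left 1 library out. None of 19 genes of the Ras and MAP kinase pathway around Rasgrf2 passed, and their median log2 change was 0.01. No gene of the paralogue, activin or Ras lists passed in the Camk2a model, where the medians were 0.02, -0.15 and -0.10.

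Because Lamp5 is also made in neurogliaform interneurons, lists for other cells were read beside its fall. Of 7 tested neurogliaform and layer 1 genes 2 rose and none fell (median 0.08), with Lsp1 at 3.45 and 1.46 FPKM and Nr2f2 at 3.27 and 1.48 FPKM on average in Nex_cKO and Nex_Ctrl. Their summed FPKM was 279 to 364 in Nex_cKO and 327 to 357 in Nex_Ctrl. Of 10 general excitatory genes 1 rose (Neurod2) and 2 fell (Neurod6 and Rtn4r). Neurod6 passed in all 6 fits that left 1 library out, Rtn4r in 2 of them and Neurod2 in 1, and with the replicate block only Neurod6 passed. Neurod6 is itself the gene of the Nex driver, and the part of the driver allele in its fall was not tested. The summed FPKM of these genes was 2566 to 2901 in Nex_cKO and 3196 to 3444 in Nex_Ctrl, without overlap, and most of that gap was Nrgn, a postsynaptic calmodulin-binding protein gene (1366 FPKM in Nex_cKO and 1795 FPKM in Nex_Ctrl on average, adjusted p = 0.117). The sums of other lists were apart too. For the oligodendrocyte lineage they were 1101 to 1336 FPKM in Nex_cKO and 1433 to 1551 FPKM in Nex_Ctrl. For endothelial cells they were 74.1 to 84.1 FPKM in Nex_cKO and 88.0 to 105.5 FPKM in Nex_Ctrl. For the hippocampus they were 7.01 to 7.40 FPKM in Nex_cKO and 3.60 to 4.28 FPKM in Nex_Ctrl. Sums of the layer 4 list were higher in Nex_cKO (70.0 to 73.0 FPKM, against 65.9 to 69.4 FPKM in Nex_Ctrl). Those of layer 5 (214 to 401 FPKM, against 641 to 683 FPKM) and layer 6 (134 to 151 FPKM, against 176 to 189 FPKM) were lower. Most of the layer 5 gap was Pcp4. Among single genes, every Nex_cKO value was above every Nex_Ctrl value for 11.5% and below for 18.9%. How often sums over lists of genes lie apart was not tested. Of the genes tested, 9 of 10 oligodendrocyte genes (median -0.23) and 7 of 7 endothelial genes (median -0.19) had negative log2 changes, and 7 of 7 microglial genes positive ones (median 0.15). Over all 12528 genes tested, 7457 log2 changes were negative and 5071 (40.5%) positive. Of the other lists, Gad2 rose among 11 GABAergic genes, Tac2 among 7 Sst and Calb2 interneuron genes, Gfap among 7 astrocyte genes, and Fibcd1 and Lct among 3 hippocampal genes. Cldn5 fell among 7 endothelial genes, and in the oligodendrocyte lineage, with 10 genes, Cspg4 rose and Sox10 fell. With 1 library left out, Cldn5 and Sox10 each passed in 2 of the 6 fits and Cspg4 in 1. None of 7 microglial or 4 thalamic genes passed. The part of these cells in the fall of Lamp5 was not tested. In the Camk2a model no gene of these lists passed.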

How the data were processed

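Per the labels, libraries were prepared with the NEBNext Ultra II kit from RNA of mouse somatosensory cortex taken up in RNAiso Plus. The authors deposited FPKM per gene in 2 tables, 1 for each age. Cufflinks 2.2.1, STAR, cutadapt and DESeq2 appear in the submitters' processing notes with no role or order, as do the builds mm10 and GRCm38. The strand used in counting is not given in the sources used here. Gene lengths deposited by the authors in the 3-month table equal the union of GENCODE exons for all 9 genes, and FPKM times length gave whole reads for 100% of values (tolerance 0.1). Names with more than 1 row were represented by the one with the highest mean (1864 and 105 rows left out). The 4463 rows without a gene name in the 2.5-month table were not tested, and their share of FPKM was 2.33% to 41.6%.

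Each table was fitted separately with limma 3.58.1 (R 4.3.3, lmFit and eBayes with intensity trend, two-sided) on log2(FPKM + 1), keeping genes that reached an FPKM of 1 in 3 or more (2.5-month) or 2 or more (3-month) libraries. Log2 changes computed this way from the deposited FPKM understate those of low genes. Adjustment followed Benjamini and Hochberg across every gene of the fit, and an adjusted p under 0.05 passed. The difference between models was a contrast over the genes tested in both tables. The 9 genes and all gene lists were chosen with earlier results of these data known, and a list is described by counts and medians only. Crym, Calb2, Rasgrf1, Inha and Inhbb are among the genes that stand in more than 1 list. A result of the striatal list is not reported here. Named genes are the 9, up to 4 called genes of each list with the largest change, and the 3 genes nearest to Lamp5; Unc5d, Nrgn, the uncalled paralogues and Slc17a7 were named after their values were seen. Promoter windows are those of RefSeq, matched by symbol. Alternatives were another pseudocount (0.1), no filter or FPKM of at least 5, quantile normalization, rescaling by median ratio or by summed FPKM of named rows, no intensity trend, robust moderation, a block for the replicate number, and fits without 1 library in turn; applying them to the genes of the lists was chosen after seeing the data. Groups of 2 and 3 are too small for an outlier test.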

Additional observations from a re-analysis of the deposited data

How the results depend on the processing

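Of the 9 genes, the count that fell in the Nex model ranged from 1 to 2 when 1 library was left out (2 without Nex_cKO replicate 3) and the count whose change differed between models from 0 to 1; it was 1 without filter and 1 with rescaling to summed FPKM of named rows. That rescaling moved the median log2 change of all genes by 0.10 in the Nex model, where Lamp5 lay -0.65 from the median (-0.67 as deposited, -0.72 to -0.57 over all settings). It turned the change of Cux1 to 0.074 (Nex), and those of Cux1 and Pou3f2 to 0.048 and 0.038 (Camk2a). Cux1 in the Nex model was 0.045 with quantile normalization and 0.00696 with median ratio rescaling. With 1 library left out, changes in the Nex model ran from -0.085 to 0.031 for Cux1 and from -0.040 to 0.20 for Pou3f2. In the Camk2a model, where this leaves 1 library in an arm that is assumed to vary like the other, they ran from -0.12 to 0.035 for Cux1, -0.22 to 0.69 for Cux2, -0.079 to 0.17 for Lamp5, -0.17 to 0.40 for Pou3f1 and -0.37 to 0.65 for Inhba. Differences between models ran from -0.072 to 0.083 for Cux1, -0.82 to 0.090 for Cux2, -0.27 to 0.20 for Otof, -0.23 to 0.34 for Pou3f1 and -0.96 to 0.064 for Inhba. Deviations of same-numbered libraries from their group means had correlations of 0.02, -0.10 and -0.10 for Nex. Those of differently numbered Nex libraries ran from -0.08 to 0.13. For Camk2a the value was 0.05, which is the same for both pairs by construction with 2 libraries a group. Such correlations cannot settle whether the numbers pair the libraries. With the number as a block, Lamp5 had an adjusted p of 0.00796 in the Nex model and 0.125 for the difference, and the counts for the 9 genes were 1 lower and 0 higher. The all-gene counts of the Nex model, 560 higher and 509 lower, were 497 and 272 with the block, 662 and 216 with rescaling to named rows, 607 and 325 with median ratio rescaling, 523 and 361 with quantile normalization and 197 and 347 with a filter of FPKM of at least 5. Leaving out 1 library gave 443 to 635 higher and 160 to 685 lower. At that filter, Otof and Inhba were not tested. With 2 libraries a group, the Camk2a model gave wide intervals.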

Other observations

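The 3 genes whose log2 values over the 6 libraries of the 2.5-month table lay nearest to those of Lamp5, each taken from its own Nex_Ctrl mean, were Slc16a3 (Euclidean distance 0.136), Ttc9b (0.155) and Ier3 (0.183). Ttc9b averaged 179 ± 23.3 FPKM in Nex_cKO and 285 ± 18.4 FPKM in Nex_Ctrl, and Ier3 averaged 7.23 ± 0.655 FPKM in Nex_cKO and 12.9 ± 0.697 FPKM in Nex_Ctrl (SD, n = 3 each). Slc16a3, a monocarboxylate transporter gene, averaged 0.460 ± 0.205 FPKM in Nex_cKO and 1.39 ± 0.207 FPKM in Nex_Ctrl. Their direction follows from how they were chosen.

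Calb1, Rasgrf2 and Inhba each had a second row in the 2.5-month table. That of Calb1 had at most 0.249 FPKM in any library. That of Rasgrf2 had 3.67, 3.88 and 2.99 FPKM in Nex_cKO, against 2.51, 3.01 and 5.44 FPKM in Nex_Ctrl, and that of Inhba had at most 0.621 FPKM in any library.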
